A study of Mus musculus with 9 samples.

Results

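The genes described here encode the proteins of the cytoplasmic ribosome in T15 cells, a murine peripheral T-cell lymphoma (PTCL) line without Smarcb1. They were taken by name from the gene annotation, as protein-coding genes whose symbols begin with Rpl or Rps and continue with a digit or an a or p suffix, leaving out the Rps6k kinases. The rule found 92 of 35288 listed genes, namely 31 genes of the small (40S) subunit, 46 genes of the large (60S) subunit, and 15 others. The 15 others comprised 7 paralogs (Rpl22l1, Rpl36al, Rpl39l, Rpl3l, Rpl7l1, Rpl10l and Rps27l), 7 retrotransposed or tandem copies that the annotation lists as coding, and Rps19bp1, which carries the name only and encodes a binding partner of the Rps19 protein. The 77 subunit genes are called core genes. Fau and Rack1 encode ribosomal proteins that the naming rule did not reach, and they are given separately.

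RNA-seq had been performed on 9 libraries in 3 groups of 3, named here by group and replicate. T15 lacks Smarcb1, a core subunit of the SWI/SNF chromatin remodeling complex, and belongs to a mouse model in which the gene is deleted in T cells by CD4-Cre. SAHA (vorinostat) is a pan-histone deacetylase inhibitor and was given at 1 µM on 2 occasions in 72 h. Smarcb1-RE cells carried the doxycycline (Dox)-inducible lentiviral pInd20 vector with Smarcb1, were selected with G418 and were induced with 0.5 µg/µl Dox for 72 h. All groups were T15 cells grown in the same medium. The labels name both a vehicle and a control plasmid as controls without saying which one the 3 control libraries received, while the study's text calls the control cells untreated, and several stable clones were made without naming the one sequenced. Therefore the effects of transduction, selection, Dox and clone cannot be told apart from that of Smarcb1. The study's methods call the replicates biological without saying whether they were separate cultures, and p-values measure the spread between these libraries.

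Each library held between 20900477 and 24941494 estimated counts. Smarcb1 itself had 2, 5 and 8 counts (control), 7, 13 and 3 counts (SAHA) and 151, 147 and 142 counts (Smarcb1-RE). Of 11 T-cell markers, 9 reached 10 counts in at least 1 library, while Cd4 was at 0 and Cd2 stayed under 10. The summed T-cell markers ranged from 3662 to 3810.1 normalized counts (CPM, counts scaled to a common library total) in control, from 4116 to 4140.3 CPM in SAHA and from 5194 to 5227 CPM in Smarcb1-RE libraries. The summed B-cell (5 genes), myeloid (7 genes) and erythroid (4 genes) markers stayed at or below 8.60 CPM in every library, with S100a8 and S100a9 at 0 throughout. The summed stromal markers (5 genes) ranged from 144 to 148 CPM in control, from 106 to 120.2 CPM in SAHA and from 139.9 to 140.5 CPM in Smarcb1-RE libraries, and their part in the results was not tested. In bulk RNA, fewer cells of a kind and less RNA per cell cannot be told apart.

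The ribosome is built from ribosomal RNAs and a large set of proteins, most of them present once per particle, and the mRNAs of these proteins are among the most abundant in dividing cells. The mRNAs of these genes usually begin with a C followed by a run of pyrimidines, the 5′ terminal oligopyrimidine (TOP) tract, through which mTOR signaling and Larp1 govern their translation. In mammals each protein is usually made from 1 intron-containing gene, whereas many processed pseudogenes carry nearly the same sequence. In T cells, Rpl22 is known for its role in αβ T-cell development, and its paralog Rpl22l1 is held in check by Rpl22.

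RefSeq promoter entries (GRCm38.p6, from 250 bases before to 50 bases after each start) matched 66 of the 92 members. The following 6 windows, from 100 bases before to 20 bases from the start onward, belong to core genes and paralogs with large changes in Smarcb1-RE libraries that are described below. Capitals mark CCGGAAG, an ETS-family core motif, and TATAAA, the TATA box core, on either strand, as well as a pyrimidine tract at the start, defined as a C followed by at least 4 C or T and beginning within 5 bases of the annotated start.
Rpl22 (chr4:152325626-152325745, plus strand): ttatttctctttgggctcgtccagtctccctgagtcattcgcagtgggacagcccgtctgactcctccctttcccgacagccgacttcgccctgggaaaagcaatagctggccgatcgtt
Rpl22l1 (chr3:28805408-28805527, plus strand): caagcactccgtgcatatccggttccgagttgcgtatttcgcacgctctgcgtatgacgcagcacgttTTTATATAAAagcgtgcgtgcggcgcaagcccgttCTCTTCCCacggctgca
Rps2 (chr17:24719963-24720082, plus strand): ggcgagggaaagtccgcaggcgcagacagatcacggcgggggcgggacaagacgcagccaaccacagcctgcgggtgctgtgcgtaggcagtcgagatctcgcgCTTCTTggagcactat
Rpl37a (chr1:72711160-72711279, plus strand): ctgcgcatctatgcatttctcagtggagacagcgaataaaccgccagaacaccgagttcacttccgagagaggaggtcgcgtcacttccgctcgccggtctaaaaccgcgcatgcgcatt
Rpl14 (chr9:120571417-120571536, plus strand): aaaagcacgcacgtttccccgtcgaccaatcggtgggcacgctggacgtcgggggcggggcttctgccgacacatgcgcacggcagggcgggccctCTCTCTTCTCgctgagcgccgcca
Rps27l (chr9:66945986-66946105, plus strand): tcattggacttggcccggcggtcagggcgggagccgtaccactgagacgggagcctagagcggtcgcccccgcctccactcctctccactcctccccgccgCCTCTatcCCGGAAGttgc
In the Rpl22l1 window the capitals hold TATAAA on both strands, overlapping each other, and a separate pyrimidine tract. A pyrimidine tract at the start was present in 45.5% of the 66 members and in 21.2% of all 27025 genes with an entry. CCGGAAG was found anywhere in the 300 bases, on either strand, in 39.4% of members and 9.93% of all genes, AAGATGGC (a YY1 core motif) in 9.09% and 3.19%, and TATAAA in 10.6% and 15.7%. Among members with an entry, the start tract was found in 4 of 7 that were higher in Smarcb1-RE than in control libraries and in 11 of 25 that were lower. In the same order, CCGGAAG was found in 2 and 11, AAGATGGC in 3 and 1, and TATAAA in 1 and 4. These splits rest on few genes and were not tested. These matches are letters in annotated windows, and no binding was measured here.

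The pseudogenes mattered for the measurement. Where a retrotransposed copy shares the sequence of its parent, the estimate has to divide reads between them, and part of the reads of a parent can be listed under the copy. Rps27 and Rps27rt illustrate this. Their annotated starts share a run of 38 identical bases, and the first 30 of these are shown.
Rps27 (chr3:90213618-90213647, minus strand): ctttccggcggtgacgacctccctacgaga
Rps27rt (chr9:114982710-114982739, minus strand): ctttccggcggtgacgacctccctacgaga
Rps27 encodes a 40S protein, yet its own entry held only 1.01% of the counts of its sequence family, and Rps27rt held 65.2%. Copies were therefore searched for with the coding sequence of each core gene (at least 85% identity over at least 70% of its length), and 1302 such entries were found, 1106 of them with counts. The entry of a core gene held a median of 74.7% of its family's counts. In 26 core genes it held under 50% and in 29 over 99%. Below 10% were Rps27, Rpl5 (3.06%), Rps12 (6.12%), Rps3a1 (6.24%) and Rpl12 (8.35%). For Rpl5, a 60S protein that carries 5S rRNA, the processed pseudogene Gm15500 held 96.7% of family counts and matched the coding sequence at 100% identity. Each result below was thus also computed with each core gene and its copies summed as a family.

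Ribosomal protein families together took 7.13% to 8.41% of all counts in a library. The plot of count shares shows the libraries by group.

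**Figure D1:**
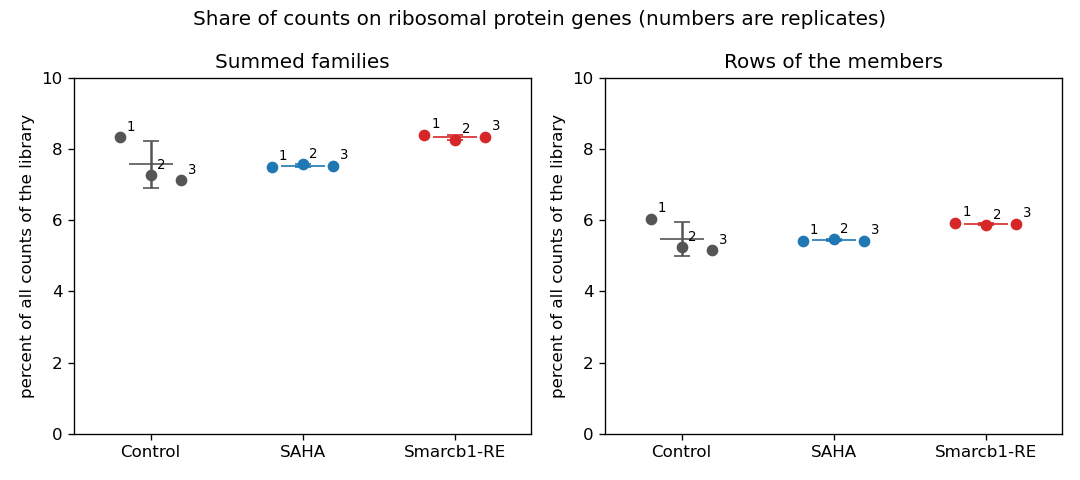
Percent of all counts of a library (y axis) on the summed families of the 77 core genes (left) and on the rows of the 92 members (right), by group (x axis). Points are libraries with their replicate number, and bars show the mean ± SD (n = 3). Control replicate 1 lies at 8.34% for the families, above the other control libraries (7.27% and 7.13%), and the Smarcb1-RE libraries lie between 8.27% and 8.41%.

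Control replicate 1 stood apart in these genes. In it, 83 of 86 tested members were higher than in both other control libraries, with a median log2 ratio of 0.27 to their mean, whereas the same ratio was 0.02 over all tested genes and -0.02 over 686 other genes of high level (average log2 CPM of at least 8). In the 6 SAHA and Smarcb1-RE libraries the median ratio of the members to the other replicates stayed between -0.03 and 0.02. Other sets moved with this library as well. Leaving it out changed the median log2 fold change in SAHA against control from -0.05 to 0.07 for the members, from -0.04 to 0.07 for 21 translation factors and other genes with TOP mRNAs, from -0.38 to -0.30 for 78 mitochondrial ribosomal proteins and from 0.00 to 0.06 for 505 other genes with transcripts under 1000 bases. Thus, counts and shares of the members are given with and without this library. For single genes the own-entry value without it is added mainly where the call changed or a called value moved by over 1.5 times. Uncalled values could move as well without being listed below. In Smarcb1-RE, Rpl11 went from -0.12 to -0.02 and Rack1 from 0.01 to 0.07, and in SAHA Gabpa went from 0.03 to -0.02. The comparison of Smarcb1-RE with SAHA uses the controls only for the shared estimate of spread.

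The share of counts was higher in Smarcb1-RE than in SAHA libraries. The families took 8.34%, 7.27% and 7.13% (control), 7.51%, 7.58% and 7.55% (SAHA) and 8.41%, 8.27% and 8.36% (Smarcb1-RE) of all counts. Smarcb1-RE and SAHA did not overlap and differed by 0.80 percentage points (exact permutation test, two-sided, p = 0.10, which is the lowest that 3 against 3 libraries can give). The means were 8.34% ± 0.07 and 7.55% ± 0.04 (SD, n = 3) in these groups and 7.58% ± 0.66 in controls. Against all 3 controls the difference was 0.77 points for Smarcb1-RE (exact permutation p = 0.20) and -0.03 points for SAHA (exact permutation p = 1.0). These differences were 1.14 and 0.34 points without control replicate 1. Over the rows of the 92 members alone, the share was 5.90% ± 0.04 (SD, n = 3) for Smarcb1-RE, 5.44% ± 0.02 for SAHA and 5.48% ± 0.49 for control libraries. Its difference was 0.46 points between Smarcb1-RE and SAHA (exact permutation p = 0.10), 0.42 points between Smarcb1-RE and control (exact permutation p = 0.40) and -0.04 points between SAHA and control (exact permutation p = 1.0). The latter differences were 0.70 and 0.24 points without control replicate 1.

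The balance of the subunits differed between groups by a few hundredths. The ratio of 60S to 40S family counts was 1.39, 1.40 and 1.40 (control), 1.41, 1.42 and 1.42 (SAHA) and 1.39, 1.38 and 1.38 (Smarcb1-RE). The SAHA libraries were all higher than the other 6, and the difference between the means of Smarcb1-RE and SAHA was -0.03 (exact permutation p = 0.10).

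Fold changes were read on a different scale. The edgeR fit scales libraries by TMM, which sets most genes to no change, and the TMM factors were 1.07 to 1.08 in Smarcb1-RE against 0.95 to 0.98 in the other libraries. A gene whose share of counts did not differ thus comes out lower in Smarcb1-RE libraries on the TMM scale. On library totals alone the median of all 13697 tested genes was 0.17 on the log2 scale in Smarcb1-RE against control, compared with 0.01 under TMM. The direction of the members' median in the Smarcb1-RE comparisons depended on this choice, as given below, and CPM values in the text are on the TMM scale.

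Of the 92 members, 86 passed the filter on low counts, including all 77 core genes. The 6 that failed were Rpl10l, Rpl39l, Rpl3l, Rpl36-ps4, Rpl9-ps1 and Rpl9-ps6, which had at most 12 counts in any library. Rpl10l and Rpl39l are paralogs of the male germ line, and Rpl3l is expressed in striated muscle.

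Individual ribosomal protein genes differed in both directions in Smarcb1-RE libraries. Against control libraries, 12 of 86 members were higher and 31 were lower (edgeR, adjusted p under 0.05), compared with 39.2% higher and 38.6% lower of all tested genes. The members thus made calls of 14.0% and 36.0%, so that the share of lower members was near the background and that of higher members was below it. The median log2 fold change was -0.10 over the members and 0.01 over all tested genes. Without control replicate 1, 30 members were higher and 29 lower (background 39.2% and 38.2%), with a median of -0.01. On library totals, 30 were higher and 13 lower with a median of 0.06 (background 47.3% and 30.2%), and with upper-quartile factors 32 and 13 (background 48.7% and 29.4%).

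Of the 43 called members, 10 had an absolute log2 fold change of at least 0.5, 3 of them higher and 7 lower. The SD of the log2 fold changes was 0.34 over the tested members and 1.14 over the other tested genes. With at least 10 counts in every library these were 0.34 and 0.84. The 60S genes had 7 higher and 19 lower of 46 with a median of -0.13. The 40S genes had 4 higher and 7 lower of 31 with a median of -0.05 (background of both 39.2% and 38.6%). Without control replicate 1 these were 13 higher and 17 lower (median -0.04) for 60S and 15 higher and 7 lower (median 0.07) for 40S (background 39.2% and 38.2%). On library totals they were 15 and 6 (median 0.03) and 13 and 2 (median 0.11), with a background of 47.3% and 30.2%. With families summed, there were 11 higher and 20 lower for 60S and 5 higher and 7 lower for 40S, and 16 of 82 members were higher and 32 lower (background 39.7% and 39.2%). In 24 fits (the one described and 23 alternatives), 9 of the 12 higher and 13 of the 31 lower members were called in the same direction in all of those in which they were tested. Neither this count nor that at 0.5 was made over all tested genes.

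**Figure D2:**
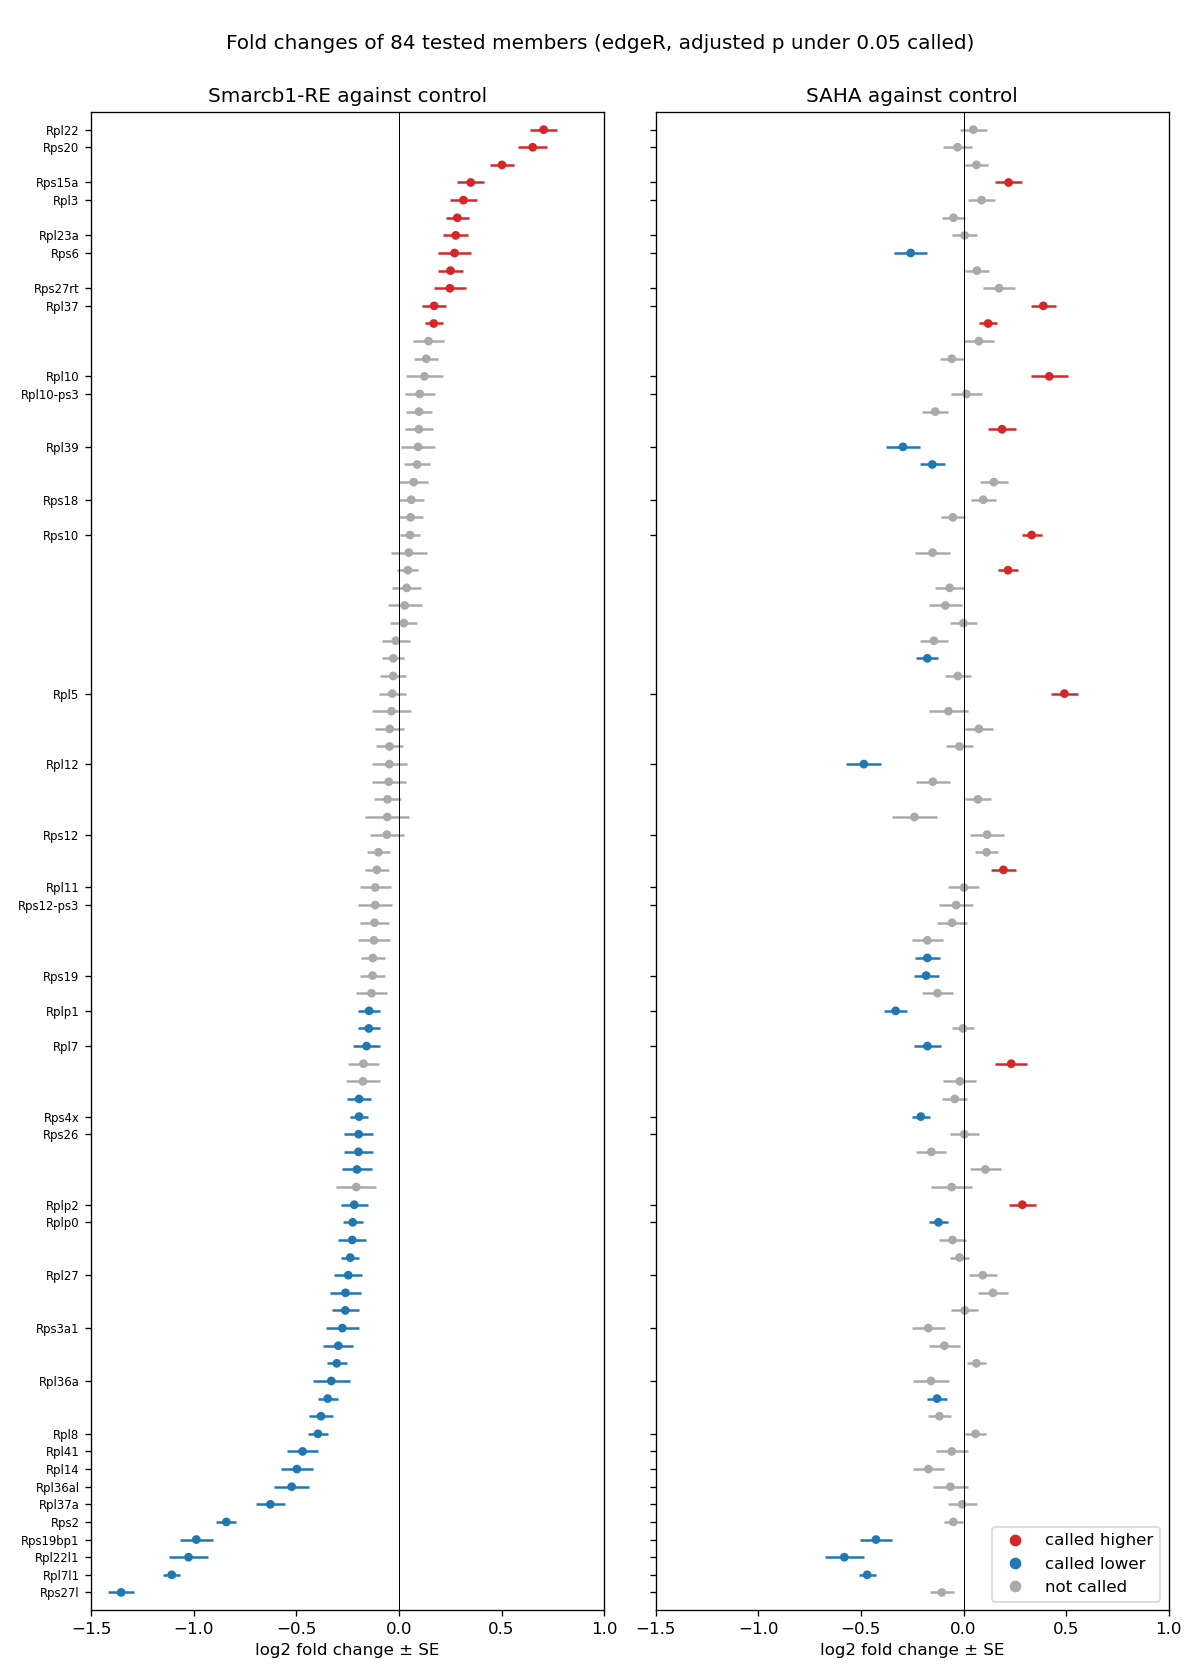
Log2 fold change (x axis, TMM scale) with its SE for 84 tested members, ordered by Smarcb1-RE against control (left) and shown for SAHA against control (right). Red and blue points were called higher and lower by edgeR, and the lowest is Rps27l at -1.35 and the highest Rpl22 at 0.70 in Smarcb1-RE. Rps27 and Rpl36a-ps1, which had few counts, were left out, and names are given for the members described in the text.

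Rpl22 rose most among the core genes. It encodes a 60S protein that binds RNA and lies at chr4:152325742-152334071 (GRCm38). Its levels were 578, 495 and 467 CPM (control), 516, 535 and 541 CPM (SAHA) and 856, 812 and 842 CPM (Smarcb1-RE). The Smarcb1-RE libraries lay above all others. The log2 fold change was 0.70 ± 0.06 (SE; edgeR adjusted p = 4.7e-07) against control and 0.66 ± 0.06 (SE; edgeR adjusted p = 1e-06) against SAHA, and 0.05 for SAHA against control (adjusted p = 0.53). The SAHA value was 0.14 (adjusted p = 0.0044) when control replicate 1 was left out.

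Its paralog Rpl22l1 moved the other way. Rpl22l1 (chr3:28805436-28807424) had levels of 178, 142 and 131 CPM (control), 109, 98.2 and 94.7 CPM (SAHA) and 71.0, 76.8 and 73.8 CPM (Smarcb1-RE). The 3 groups did not overlap, with control libraries highest and Smarcb1-RE libraries lowest. It fell in both treatments, with a log2 fold change of -1.03 ± 0.10 (SE; edgeR adjusted p = 5.5e-07) in Smarcb1-RE and -0.58 ± 0.09 (SE; edgeR adjusted p = 0.00013) in SAHA, and it was lower in Smarcb1-RE than in SAHA (-0.44 ± 0.10, SE; edgeR adjusted p = 0.0011). Each of these calls was made in 24 of 24 fits.

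The other paralogs were lower as well. Rps27l, a paralog of Rps27 known as a p53 target, fell most of all members called in Smarcb1-RE. Its levels were 89.7, 74.9 and 78.1 CPM (control), 74.5, 75.0 and 76.0 CPM (SAHA) and 31.7, 31.0 and 32.2 CPM (Smarcb1-RE). The Smarcb1-RE libraries lay below all others, and control and SAHA libraries overlapped. The log2 fold change was -1.35 ± 0.06 (SE; edgeR adjusted p = 8.5e-10) against control and -1.25 ± 0.06 (SE; edgeR adjusted p = 2e-09) against SAHA, and -0.11 for SAHA against control (adjusted p = 0.13).

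Rpl7l1, a paralog of Rpl7 that acts in assembly of the large subunit, hardly differed among the control libraries. Its levels were 239, 245 and 234 CPM (control), 180.4, 170.0 and 168 CPM (SAHA) and 115, 109 and 109 CPM (Smarcb1-RE). The 3 groups were fully separated in the order control, SAHA and Smarcb1-RE. It fell by 1.11 on the log2 scale in Smarcb1-RE (SE 0.04, edgeR adjusted p = 1.7e-10) and by 0.47 in SAHA (SE 0.04, adjusted p = 6.7e-07). Its parent Rpl7, a 60S protein, was at -0.16 in Smarcb1-RE (adjusted p = 0.044) and -0.18 in SAHA (adjusted p = 0.032), and neither passed the test without control replicate 1 (adjusted p = 0.094 and 0.053). On library totals Rpl7 was at 0.00 in Smarcb1-RE.

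Rpl36al, an expressed retrocopy of Rpl36a with the same function in the 60S subunit, fell in Smarcb1-RE. Its levels were 130.5, 101 and 99.1 CPM (control), 105, 105 and 106 CPM (SAHA) and 74.1, 78.7 and 76.9 CPM (Smarcb1-RE). The Smarcb1-RE libraries lay below the rest, and the log2 fold change was -0.52 ± 0.08 (SE; edgeR adjusted p = 9.5e-05) against control and -0.06 for SAHA against control (adjusted p = 0.52). Its difference from SAHA was tested directly and was -0.46 ± 0.09 (SE; edgeR adjusted p = 0.00031). Rpl36a was at -0.33 ± 0.09 (SE; edgeR adjusted p = 0.0046) in Smarcb1-RE and, without control replicate 1, at -0.19 (adjusted p = 0.0025). Rps19bp1, which is not a ribosomal protein, fell in both groups, by 0.99 on the log2 scale in Smarcb1-RE (edgeR adjusted p = 1.4e-07) and by 0.43 in SAHA (adjusted p = 0.00029).

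The remaining tested members outside the core were coding copies whose reads are shared with their parents. Rpl10-ps3 (0.10 in Smarcb1-RE and 0.01 in SAHA), Rps12-ps3 (-0.12 and -0.04) and Rpl36a-ps1 (-0.35 and -1.42, with at most 5.44 CPM) did not pass the test in either comparison. Rps27rt was higher in Smarcb1-RE (0.25 ± 0.08, SE; edgeR adjusted p = 0.012) although its libraries overlapped those of control, and 0.17 in SAHA (adjusted p = 0.071). When control replicate 1 was left out, Rps27rt in SAHA was at 0.29 (adjusted p = 0.00016) and Rpl10-ps3 in Smarcb1-RE at 0.19 (adjusted p = 0.0068). For Rps27, the own entry was at -0.06 in Smarcb1-RE and the summed family at 0.25 ± 0.07 (SE; edgeR adjusted p = 0.0060).

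**Figure D3:**
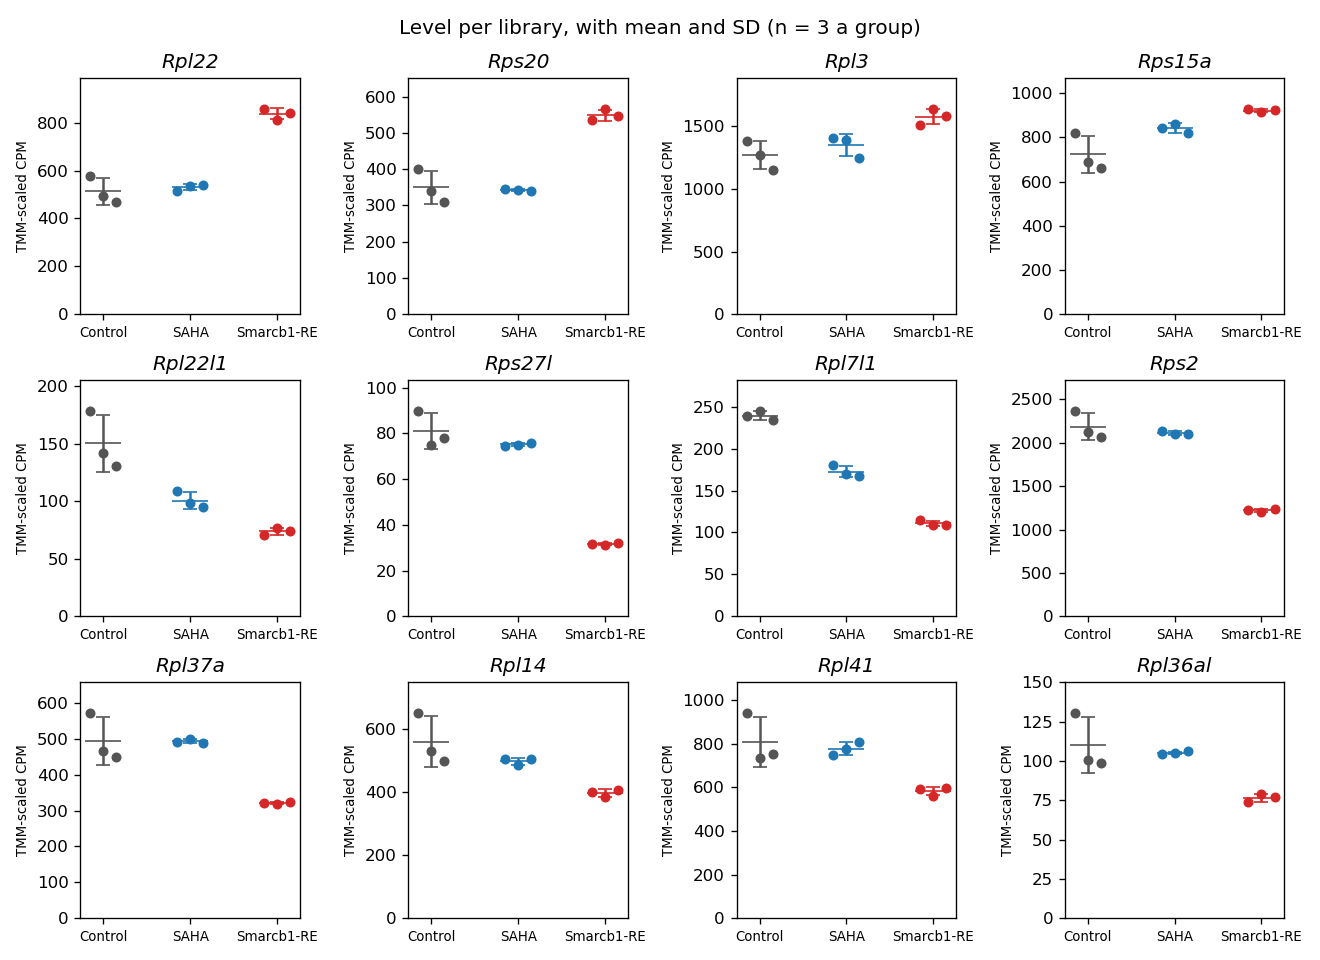
Level of 12 members in each library (y axis, TMM-scaled CPM from 0) by group (x axis), with points for replicates 1 to 3 from left to right and bars for the mean ± SD (n = 3). The 4 genes of the first row are higher in the Smarcb1-RE libraries than in all others, and the 8 genes from Rpl22l1 to Rpl36al are lower in them than in all others.

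Rps2 fell most among the core genes. It encodes a 40S protein at the mRNA entry side and lies at chr17:24718116-24721929. Its levels were 2364, 2130.0 and 2064 CPM (control), 2133, 2106 and 2096 CPM (SAHA) and 1221, 1206 and 1233 CPM (Smarcb1-RE). Control and SAHA libraries overlapped and the Smarcb1-RE libraries lay far below, at a fold of 0.558. The log2 fold change was -0.84 ± 0.05 (SE; edgeR adjusted p = 5.5e-09) against control and -0.79 ± 0.05 (SE; edgeR adjusted p = 1.1e-08) against SAHA. The own entry held 94.2% of family counts, and the summed family gave -0.85 ± 0.05 (SE; edgeR adjusted p = 3.9e-09).

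Rpl37a, Rpl14, Rpl41 and Rpl8, all of the 60S subunit, followed. Rpl37a (chr1:72711290-72713813) had 571, 465 and 448 CPM (control), 491, 499 and 487 CPM (SAHA) and 320.2, 317 and 324 CPM (Smarcb1-RE). As for Rps2, only the Smarcb1-RE libraries were set apart, and the log2 fold change was -0.63 ± 0.07 (SE; edgeR adjusted p = 4.1e-06). Rpl14 was at -0.50 ± 0.08 (SE; edgeR adjusted p = 6.1e-05) and Rpl41, which encodes the shortest ribosomal protein, at -0.47 ± 0.08 (SE; edgeR adjusted p = 0.00011). Rpl8, whose protein contacts the catalytic center and for which no copy with counts was found, was at -0.40 ± 0.05 (SE; edgeR adjusted p = 9.2e-06). All 4 were also lower than in SAHA libraries, with log2 differences between -0.62 and -0.33, and each was called in 24 of 24 fits in both comparisons.

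Among the genes that rose, Rps20 came next to Rpl22. It encodes a 40S protein of the head domain. Its levels were 399, 339.8 and 309 CPM (control), 345, 343 and 339 CPM (SAHA) and 536, 565 and 546 CPM (Smarcb1-RE). No library of the other groups reached the Smarcb1-RE levels, and the log2 fold change was 0.65 ± 0.07 (SE; edgeR adjusted p = 2.6e-06) against control and 0.68 ± 0.07 (SE; edgeR adjusted p = 1.9e-06) against SAHA. Rps15a was at 0.35 ± 0.07 (SE; edgeR adjusted p = 0.00031) and Rpl3, whose protein reaches the peptidyl transferase center, at 0.31 ± 0.07 (SE; edgeR adjusted p = 0.0007). Rps15a was also higher in SAHA than in control (0.22 ± 0.07, SE; edgeR adjusted p = 0.010). Its difference between Smarcb1-RE and SAHA was 0.13 (edgeR adjusted p = 0.089, and 0.0011 without control replicate 1). For Rpl3 the summed family gave a smaller value, 0.19 ± 0.05 (SE; edgeR adjusted p = 0.0039).

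Several of these genes share a chromosome. Of the 5 core genes on chromosome 4 (Rpl22, Rps20, Rps6 and Rpl11 among them), 4 were higher in Smarcb1-RE than in control libraries and 1, Rpl11, was at -0.12 (adjusted p = 0.18). Their median log2 fold change was 0.28, against -0.08 for the 72 core genes on other chromosomes. Of these 72, 7 were higher and 26 lower (background 39.2% and 38.6%). Leaving out control replicate 1 gave medians of 0.40 (4 higher) and -0.02 (24 higher and 24 lower), with a background of 39.2% and 38.2%. On library totals the medians were 0.44 (4 higher) and 0.08 (24 higher and 8 lower), with a background of 47.3% and 30.2%. All 778 tested protein-coding genes of chromosome 4 had a median of 0.37 in the same comparison, with 462 higher and 162 lower, and of -0.04 in SAHA. The part of this chromosome-wide shift in the rise of Rpl22 and Rps20 was not tested. Rps6, the 40S protein phosphorylated by S6 kinases, had a log2 fold change of 0.27 ± 0.08 (SE; edgeR adjusted p = 0.0085) with overlapping libraries, and its family of 0.36 ± 0.06 (SE; edgeR adjusted p = 0.00013).

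Fewer members were called in SAHA. Against control, 11 of 86 were higher and 15 lower (12.8% and 17.4%, compared with 32.6% and 34.3% of all tested genes), and the median was -0.05 against 0.00 over all genes. Without control replicate 1, 33 were higher and 11 lower (background 33.1% and 34.2%) with a median of 0.07. With families summed, 13 of 82 were higher and 15 lower (background 33.1% and 35.0%). Fewer lower members were called without SAHA replicate 3 (9; background 31.5%) and more without control replicate 2 (23; background 32.0%) or 3 (25; background 32.6%). With upper-quartile factors, 23 were higher and 7 lower (background 38.1% and 28.4%). Only Rpl22l1 among the called members passed an absolute log2 fold change of 0.5, and 7 of the 11 higher and 6 of the 15 lower members were called in all fits. These counts were not made over all tested genes. The SD of the log2 fold changes was 0.25 over the tested members and 0.80 over the other tested genes.

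Among core genes, large own-entry changes in SAHA included those of genes with most reads on copies. Rpl5 rose by 0.49 ± 0.06 (SE; edgeR adjusted p = 2.1e-05) in its own entry, with 63.4, 53.5 and 51.6 CPM (control), 76.8, 79.4 and 80.7 CPM (SAHA) and 54.5, 55.1 and 55.1 CPM (Smarcb1-RE). Its family, however, was at 0.10 ± 0.06 (SE; edgeR adjusted p = 0.18). Rpl12, a protein of the stalk base, was at -0.49 ± 0.09 (SE; edgeR adjusted p = 0.00025) in its own entry and -0.08 ± 0.06 (SE; edgeR adjusted p = 0.25) as a family, and Rpl10, which is needed for subunit joining, at 0.42 ± 0.09 (SE; edgeR adjusted p = 0.0011) and 0.13 ± 0.04 (SE; edgeR adjusted p = 0.0099). Rps27 was at -0.63 in its own entry (adjusted p = 0.15) and 0.14 ± 0.07 (SE; edgeR adjusted p = 0.090) as a family.

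**Figure D4:**
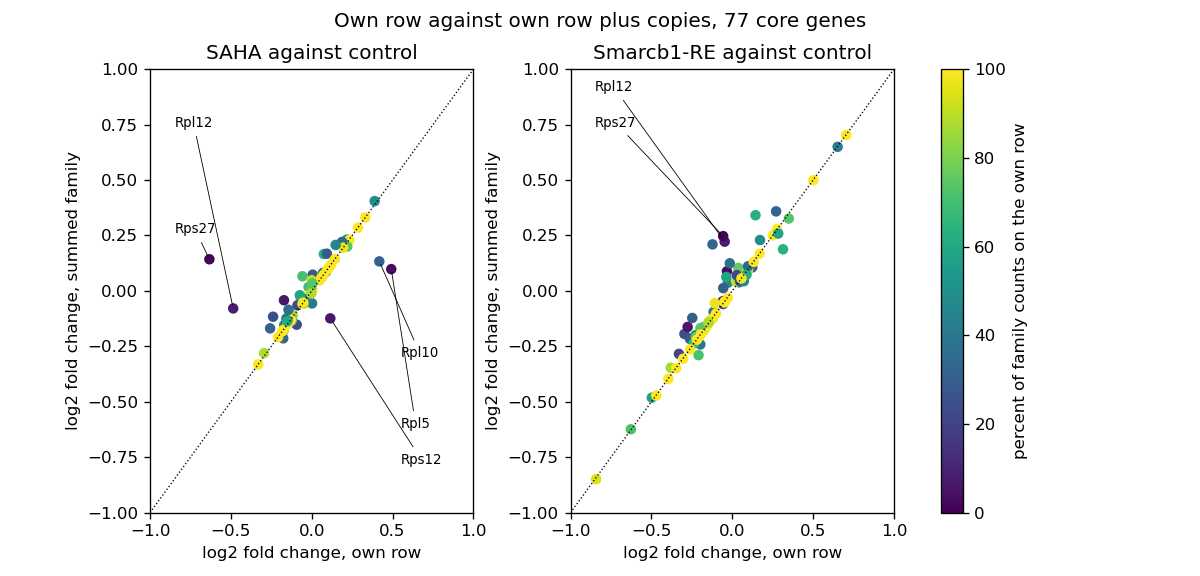
Log2 fold change of the own entry (x axis) and of the summed family (y axis) for the 77 core genes in SAHA (left) and Smarcb1-RE (right) against control, colored by the percent of family counts on the own entry. Points off the dotted line of equality moved when copies were added, and labels name those described in the text that moved by over 0.2. The median absolute shift was 0.01 in both comparisons and the largest was 0.78 (Rps27 in SAHA).

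Of the 51 core genes with at least 50% of family counts on their own entry, 1 (SAHA) and 2 (Smarcb1-RE) shifted by over 0.1 when copies were added. Rplp1, a protein of the stalk that recruits translation factors and the core gene with the highest level per kilobase of transcript (3268 CPM per kilobase, mean of all libraries), had 2003, 1748 and 1687 CPM (control), 1445, 1430.4 and 1447 CPM (SAHA) and 1669.8, 1625 and 1621 CPM (Smarcb1-RE). SAHA libraries were lowest and no other group overlapped with them, with a log2 fold change of -0.33 ± 0.06 (SE; edgeR adjusted p = 0.00016). Its partner Rplp2 moved the other way, with 806, 679.7 and 648 CPM (control), 847, 894 and 862 CPM (SAHA) and 603, 603 and 629 CPM (Smarcb1-RE). It rose in SAHA (0.29 ± 0.07, SE; edgeR adjusted p = 0.0021) and was lower in Smarcb1-RE than in SAHA (-0.50 ± 0.07, SE; edgeR adjusted p = 1.7e-05), while Rplp0, the stalk base to which both bind, was at -0.12 in SAHA (adjusted p = 0.041). Rplp0 in SAHA was at -0.06 (adjusted p = 0.066) without control replicate 1.

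Rps10 and Rpl37 were among the 7 members called higher under SAHA in every fit. Rps10, a 40S protein modified by ubiquitin at collided ribosomes, had 691, 614 and 619.6 CPM (control), 779.9, 820.1 and 822 CPM (SAHA) and 677, 652 and 669 CPM (Smarcb1-RE). The SAHA libraries lay above all others, and the log2 fold change was 0.33 ± 0.05 (SE; edgeR adjusted p = 5.6e-05). Rpl37 was at 0.39 ± 0.06 (SE; edgeR adjusted p = 8.2e-05) and at 0.40 ± 0.05 (SE; edgeR adjusted p = 2.4e-05) as a family. Rpl39, which lines the exit tunnel, was lower under SAHA (-0.29 ± 0.08, SE; edgeR adjusted p = 0.0077), as were the X-linked Rps4x (-0.21 ± 0.04, SE; edgeR adjusted p = 0.0012) and Rps6 (-0.26 ± 0.08, SE; edgeR adjusted p = 0.014). With control replicate 1 left out, Rpl39 was at -0.17 (adjusted p = 0.0079) and Rps6 at -0.13 (adjusted p = 0.0087). Rpl39 was higher in Smarcb1-RE than in SAHA (0.39 ± 0.08, SE; edgeR adjusted p = 0.0010), and at 0.09 against control (adjusted p = 0.32). The latter was 0.21 (adjusted p = 0.0014) without control replicate 1.

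Smarcb1-RE and SAHA libraries were then compared directly. Here 15 of 86 members were higher and 32 lower in Smarcb1-RE (17.4% and 37.2%, against 37.7% and 36.8% of all tested genes), with a median of -0.08 against 0.02 over all genes. Without control replicate 1, 23 were higher and 43 lower (background 38.6% and 38.0%). On library totals, 34 were higher and 18 lower (background 47.0% and 28.6%), with a median of 0.08 against 0.18 over all genes. Large differences were those of Rps20 (0.68), Rpl22 (0.66), Rps6 (0.53) and Rpl12 (0.44 in its own entry) among higher core genes and of Rps2 (-0.79), Rpl37a (-0.62), Rpl5 (-0.52 in its own entry), Rplp2 (-0.50) and Rpl8 (-0.45) among lower ones. As a family, Rpl12 differed by 0.30 ± 0.06 (SE; edgeR adjusted p = 0.00045) and Rpl5 by -0.01 ± 0.06 (SE; edgeR adjusted p = 0.89).

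Fau and Rack1, which encode ribosomal proteins with other names, were higher in SAHA than in control libraries. Rack1, a scaffold on the 40S subunit, had levels of 1692, 1483 and 1476 CPM (control), 1935, 2031 and 2066 CPM (SAHA) and 1586, 1535 and 1557 CPM (Smarcb1-RE), with SAHA libraries above all others. It rose in SAHA by 0.38 ± 0.05 (SE; edgeR adjusted p = 3.9e-05), as did Fau (0.31 ± 0.09, SE; edgeR adjusted p = 0.011), which is made as a fusion with a ubiquitin-type protein. In Smarcb1-RE the log2 fold changes were 0.01 for Rack1 (adjusted p = 0.89) and 0.15 for Fau (adjusted p = 0.15). Fau was called higher, at 0.29 (adjusted p = 0.0006), without control replicate 1.

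Mutations in ribosomal protein genes cause Diamond-Blackfan anemia, and 19 such genes were tested. In Smarcb1-RE against control 1 was higher (Rps15a) and 2 were lower (Rpl27 and Rps26), with a median of -0.05 (background 39.2% and 38.6%). Without control replicate 1, 6 were higher and 2 lower (median 0.04), with a background of 39.2% and 38.2%. On library totals 6 were higher and 0 lower (median 0.11), with a background of 47.3% and 30.2%. In SAHA 4 were higher and 4 lower with a median of -0.03 (background 32.6% and 34.3%). There, 8 were higher and 3 lower without control replicate 1 (median 0.07), with a background of 33.1% and 34.2%. Of the 5S particle and p53 list, Rpl5 and Rpl11 (the partners of 5S rRNA that bind Mdm2) are given above, and Trp53 was lower in both groups, at -0.97 ± 0.05 (SE; edgeR adjusted p = 4.3e-09) in Smarcb1-RE and -0.56 ± 0.05 (SE; edgeR adjusted p = 1.3e-06) in SAHA. Mdm2 was at 0.42 ± 0.04 (SE; edgeR adjusted p = 1.3e-06) in SAHA and -0.10 in Smarcb1-RE (adjusted p = 0.045), and Mdm4 at 0.46 (adjusted p = 2e-05) and 0.33 (adjusted p = 0.00027).

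Genes that act around the ribosome included many that were lower. Of 21 translation factors and other genes with TOP mRNAs, 2 were higher and 15 lower in Smarcb1-RE (median -0.24; background 39.2% and 38.6%), and on library totals 6 were higher and 10 lower (median -0.08; background 47.3% and 30.2%). In SAHA 9 were higher and 5 lower (median -0.04), with a background of 32.6% and 34.3%. These were 10 and 6 without control replicate 1 (median 0.07), with a background of 33.1% and 34.2%. The elongation factor subunit Eef1g had 1214 CPM in control and 608 CPM in Smarcb1-RE libraries (means, n = 3; edgeR adjusted p = 2.4e-10), and Tpt1, which encodes the translationally controlled tumor protein, was at 0.43 ± 0.06 (SE; edgeR adjusted p = 2.1e-05). Of 11 chaperones and importers of ribosomal proteins, 10 were lower in Smarcb1-RE and Tnpo1, an import receptor, was at -0.14 (adjusted p = 0.080, and without control replicate 1 -0.23 with adjusted p = 0.00072; list median -0.70), and 1 was higher and 9 lower in SAHA (median -0.49). Grwd1, a chaperone of Rpl3, was at -1.58 ± 0.05 (SE; edgeR adjusted p = 7.7e-11) in Smarcb1-RE, Heatr3, an importer of Rpl5, at -1.13 ± 0.05 (SE; edgeR adjusted p = 7.5e-10), and Tsr2, a chaperone of Rps26, at -0.98 ± 0.06 (SE; edgeR adjusted p = 5.7e-08) in SAHA.

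Mitochondrial ribosomal proteins, a separate set that serves translation in mitochondria, were mostly lower. Of 78 tested, 2 were higher and 70 lower in Smarcb1-RE with a median of -0.73 (background 39.2% and 38.6%). In SAHA 7 were higher and 53 lower with a median of -0.38 (background 32.6% and 34.3%). The cytoplasmic members' medians were -0.10 and -0.05. On library totals the mitochondrial median in Smarcb1-RE was -0.57. The share of counts on genes of the mitochondrial genome was 3.20% ± 0.29 (control), 3.57% ± 0.19 (SAHA) and 4.91% ± 0.15 (Smarcb1-RE; SD, n = 3), with exact permutation p = 0.10 for Smarcb1-RE and p = 0.20 for SAHA against control. The 686 other genes of high level had a median of -0.28 in Smarcb1-RE and 0.02 in SAHA, and 505 other genes with transcripts under 1000 bases had medians of -0.28 and 0.00.

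Regulators of ribosomal protein mRNAs changed in both directions, as did all tested genes. Of 14 genes of the mTOR and TOP-binding list, 5 were higher and 5 lower in Smarcb1-RE (background 39.2% and 38.6%). In SAHA 6 were higher and 4 lower (background 32.6% and 34.3%). Larp1, which binds the TOP tract, was at -0.60 ± 0.04 (SE; edgeR adjusted p = 2.6e-08) in Smarcb1-RE and -0.09 in SAHA (adjusted p = 0.066), and without control replicate 1 the latter was -0.11 (adjusted p = 0.017). Eif4ebp1, a translation repressor and mTOR substrate, was at 1.05 ± 0.06 (SE; edgeR adjusted p = 7e-09) in Smarcb1-RE and -0.75 ± 0.07 (SE; edgeR adjusted p = 9.4e-07) in SAHA, and Mtor at 0.43 (adjusted p = 9.2e-06) and 0.92 (adjusted p = 1.8e-08). Of 9 transcription factors known at ribosomal protein promoters, 2 were higher and 6 lower in Smarcb1-RE, and 3 were higher and 2 lower in SAHA (same backgrounds). Myc was at -0.56 ± 0.04 (SE; edgeR adjusted p = 1.9e-08) in Smarcb1-RE and 0.25 ± 0.04 (SE; edgeR adjusted p = 4.6e-05) in SAHA, and Gabpa, the ETS factor of the CCGGAAG motif, at 0.30 ± 0.05 (SE; edgeR adjusted p = 0.0001) and 0.03 (adjusted p = 0.66). Only mRNA was measured, so translation of these mRNAs and the amount of ribosomes are not addressed.

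Levels differed between members per length of transcript. Rplp1 was followed by Rpl23a (2414 CPM per kilobase) and Rps18 (2326 CPM per kilobase), while Rps27, Rpl5 and Rpl12 were lowest with 16.1, 31.0 and 59.6 CPM per kilobase in their own entries. As families these 3 had 1607, 1011 and 715 CPM per kilobase. The length is that of the shortest annotated transcript with the principal coding sequence, which may differ from the expressed one.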

How the data were processed

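Bulk RNA-seq of 9 T15 libraries (3 Control, 3 SAHA, 3 Smarcb1-RE) was analysed. The authors deposited 1 table of estimated counts, without normalization, with Ensembl gene identifiers. The submitters' processing notes name Salmon 0.14.1, FastQC 0.11.8, MultiQC 1.7, DESeq2 1.22.2 and GRCm38, and the directional kit gave single-end reads. Of the values above 0, 52.4% were not whole, and all were rounded. GENCODE M21 gave names for 99.5% of identifiers. No column of another series was present (0 left out). Totals ranged from 20900477 to 24941494.

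All 9 libraries entered 1 fit with edgeR 4.0.16 in R 4.3.3 (TMM factors, a filterByExpr minimum of 10 counts, quasi-likelihood F tests for 3 contrasts, and a Benjamini-Hochberg adjusted p under 0.05 across all tested genes). Standard errors are the absolute log2 fold change over the square root of F. Shares of counts were compared by two-sided exact permutation tests (scipy 1.17.1). Families were found with BLAST+ 2.17.0. Scripts were tested on simulated counts. Members and lists were chosen with earlier results of these data known. Named genes are all tested members outside the core, per comparison and direction the 5 core genes with the largest change among called genes without overlap, the 3 highest and 3 lowest per length, the parents of paralogs, Rpl5, Rpl11, Fau and Rack1, and a few genes that meet these rules are not reported here. Genes of the other lists were chosen after their values were seen. snoRNA host genes, also listed, were not analysed here.

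Alternatives were DESeq2 1.42.0, RLE and upper-quartile factors, library totals, TMM without the members, other count filters, separate fits, a replicate block, stricter thresholds, named pseudogene counts added, protein-coding genes only and leaving out each library. Family sums and scaling to the ribosomal pool were added after seeing the data.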

Additional observations from a re-analysis of the deposited data

How the results depend on the processing

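Counts and medians of the members rested on the scaling and on control replicate 1. Of 1523 combinations of 67 named gene results with an alternative, 1451 kept direction and side of the threshold, 42 newly passed, 23 no longer passed and 7 reversed. Counts are given as higher and lower.

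With upper-quartile factors the counts were 23 and 7 in SAHA against control. For Smarcb1-RE they were 32 and 13 against control and 28 and 23 against SAHA. Of all 13697 tested genes, 5960 were higher and 4320 lower in Smarcb1-RE than in SAHA with these factors. The members' medians were 0.075 and 0.023 in Smarcb1-RE against control and SAHA, beside 0.19 and 0.12 over all tested genes. With library totals only they were 30 and 13 against control (median 0.055) and 34 and 18 against SAHA (median 0.081) for Smarcb1-RE. The medians over all tested genes were 0.17 and 0.18 on library totals. Scaled to the ribosomal pool, they were 22 and 29 against control and 23 and 31 against SAHA for Smarcb1-RE. With family sums as well they were 20 and 22 in SAHA, and 22 and 34 against control and 24 and 32 against SAHA for Smarcb1-RE. Without a filter they were 10 and 24 in SAHA, and separate fits gave 23 and 43 in Smarcb1-RE against SAHA. The share called over all tested genes was not computed for pool scaling, no filter, separate fits, a replicate block and stricter thresholds. Nor was it computed for most fits that leave out 1 library. The counts of all these settings thus do not tell a shift of the members from one common to all genes.

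A minimum absolute log2 fold change of 0.5 left 0 and 1 in SAHA (11 and 15 by edgeR without it), and 3 and 7 in both Smarcb1-RE comparisons, and an adjusted p under 0.01 left 6 and 7 in SAHA. Leaving out 1 library gave 8 to 33 higher, 9 to 25 lower and medians of -0.10 to 0.068 in SAHA, 9 to 30 higher, 26 to 41 lower and medians of -0.16 to -0.0089 in Smarcb1-RE against control, and 13 to 23 higher and 27 to 43 lower against SAHA. The extremes came from leaving out control replicate 1 (33, 30 and 23 higher, and 43 lower), control replicate 2 or 3 (8 higher in SAHA, and 9 and 10 in Smarcb1-RE), control replicate 3 (25 and 41 lower), SAHA replicate 3 (9 lower), SAHA replicate 2 (13 higher) and Smarcb1-RE replicate 2 (26 and 27 lower).

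The difference in share of counts between Smarcb1-RE and SAHA was 0.50 points of protein-coding counts, 0.57 with named pseudogenes added and 0.80 for families, and that against control 0.77 for families. The 7 reversed values among the 67 named gene results were of Rps27, Rpl5 and Rpl7. Rps27 was at 0.25 as a family in Smarcb1-RE. With pool scaling as well, it was at 0.28 in Smarcb1-RE and 0.16 in SAHA. Rpl5, as a family with pool scaling, was at 0.12 against control and 0.0072 against SAHA in Smarcb1-RE. Rpl7 was at 0.0019 on library totals and 0.021 with upper-quartile factors. Other values in the text changed sign too. On library totals all 5 core genes of chromosome 4, Rpl11 included, were above 0 in Smarcb1-RE against control (lowest 0.045). The causes were not tested.

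With a replicate block the counts were 11 and 15 in SAHA, 13 and 33 in Smarcb1-RE against control and 16 and 32 against SAHA. No pairing by replicate number was seen (mean correlation of same-numbered deviations -0.003), which cannot show that none existed. Genes with most reads on copies, such as Rps27 and Rpl5, are limited by how reads were divided. Differences under about 0.1 on the log2 scale are within the spread of the library medians (SD 0.09). This spread was mostly that of the controls. The members' median log2 ratios to the other replicates were 0.27, -0.12 and -0.16 in controls, and between -0.03 and 0.02 in SAHA and Smarcb1-RE libraries.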
